A study of Mus musculus with 7 samples.

Results

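Follicular-like B cells are described here in the livers of mice carrying tumours driven by Nras and C-myc, with and without an IL-2/CD25 expression plasmid. A follicular-like B cell was taken as a droplet barcode with at least 500 UMIs (unique molecular identifiers, each standing for 1 captured RNA molecule), at least 200 genes and under 20% mitochondrial UMIs. It also had to hold at least 1 UMI of Cd79a, at least 1 of Cd79b or Ms4a1, at least 1 of Ighd or Fcer2a and none of the T cell genes Cd3d, Cd3e and Cd3g. This rule found 4147 member barcodes among 62304 that passed the 3 quality limits. A further 284 barcodes met every condition except that on Ighd and Fcer2a, and are called other B cells.

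Droplet-based single-cell RNA sequencing, which counts the 3′ ends of transcripts, was run on livers taken 2 weeks after plasmids were injected hydrodynamically through the tail vein, a fast, large-volume injection that brings them mainly into hepatocytes. The 4 samples named IL-2/CD25 received plasmids for Nras and C-myc and, with them, a plasmid for IL-2/CD25, which by the series title is a fusion protein of interleukin 2 and a chain of its receptor. The 3 samples named Control received the Nras and C-myc plasmids without the IL-2/CD25 plasmid. The labels call all 7 samples HCC tissue (hepatocellular carcinoma), and give all of them the same batch. They do not give strain, sex, age, the promoter of each plasmid or whether the samples are separate animals, so p-values measure only the spread between these samples.

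Follicular B cells are the recirculating, resting B cells of spleen, lymph node and blood. They carry IgD beside IgM on their surface and express the low-affinity IgE receptor CD23, the product of Fcer2a. The receptors CXCR5, CCR7 and S1PR1 steer them into lymphoid follicles and back into the blood, and the transcription factors PAX5, BACH2 and KLF2 hold them in the resting, mature B cell state. In the liver they are a minority that arrives mostly with the blood. Interleukin 2 acts through the receptor chains encoded by Il2ra, Il2rb and Il2rg and through STAT5, which induces the feedback inhibitors CISH and SOCS3. Resting B cells carry little of the receptor alpha chain until they are activated.

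Cish and Socs3 were both lower in follicular-like B cells of the IL-2/CD25 samples and their promoters are shown, from 250 bases before to 50 after the transcription start, as RefSeq gives them for the build GRCm38.p6. Capitals mark the motif TTCNNNGAA, the general form of a STAT binding site, which reads the same on both strands. It occurs in 8.3% of 32851 promoters of the same length (2726 promoters), 2 times in the window of Cish and 1 time in that of Socs3; a match is a description of the letters and not evidence of binding.
Cish, chr9:107296409-107296708, + strand: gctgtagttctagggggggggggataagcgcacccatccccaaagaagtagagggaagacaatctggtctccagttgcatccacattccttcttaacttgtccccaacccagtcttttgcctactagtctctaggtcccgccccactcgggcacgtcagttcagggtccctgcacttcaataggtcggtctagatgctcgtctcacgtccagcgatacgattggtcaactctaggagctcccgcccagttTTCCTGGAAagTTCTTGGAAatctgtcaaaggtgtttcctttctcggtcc
Socs3, chr11:117969317-117969616, - strand: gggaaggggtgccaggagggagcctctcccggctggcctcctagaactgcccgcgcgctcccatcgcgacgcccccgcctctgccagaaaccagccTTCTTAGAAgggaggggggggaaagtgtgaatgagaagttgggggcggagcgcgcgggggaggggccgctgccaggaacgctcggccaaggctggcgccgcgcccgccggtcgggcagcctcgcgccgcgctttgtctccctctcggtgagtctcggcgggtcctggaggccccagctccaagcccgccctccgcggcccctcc

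The libraries differed in depth and in what lay around the B cells. Passing barcodes held a median of 3215 to 4477.5 UMIs in the IL-2/CD25 samples and 6253.5 to 8724 in the Control samples, whereas follicular-like B cells held 2580 to 3059 in the IL-2/CD25 samples and 1823.5 to 2495 in the Control samples. Barcodes with over 3 times the median UMIs of the members of their own sample made up 1.40 to 2.40% of the IL-2/CD25 members, with 5.54 to 8.53% of their summed UMIs. In the Control samples they were 7.35 to 10.7% of the members but held 37.4 to 62.2% of the summed UMIs. Of 5 neutrophil markers, 3 or more UMIs were found in 2.35 to 4.21% of the IL-2/CD25 members and in 34.6 to 84% of the Control members. For 4 tumour cell markers these shares were at most 0.291% and 5.88 to 19.2%, and for 4 NK cell and ILC1 markers 5.44 to 5.69% and 0.490 to 2.67%. Free RNA, estimated from markers of other cell types, was 7.75 to 17.4% of the summed UMIs of the members in the IL-2/CD25 samples and 17.0 to 45.6% in the Control samples. Without the barcodes over 3 times the median the same estimate was 7.67 to 12.4% in the IL-2/CD25 samples and 16.0 to 21.6% in the Control samples. Counts over gene lists are therefore given in 3 forms, with all members, without the barcodes over 3 times the median, and without them and with free RNA subtracted, and single genes with all members unless another form is named. Both added forms were chosen after the data were seen. The libraries shared 459 barcode sequences of 61843, and 50 member barcodes had a sequence that also passed in another library.

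**Figure D1:**
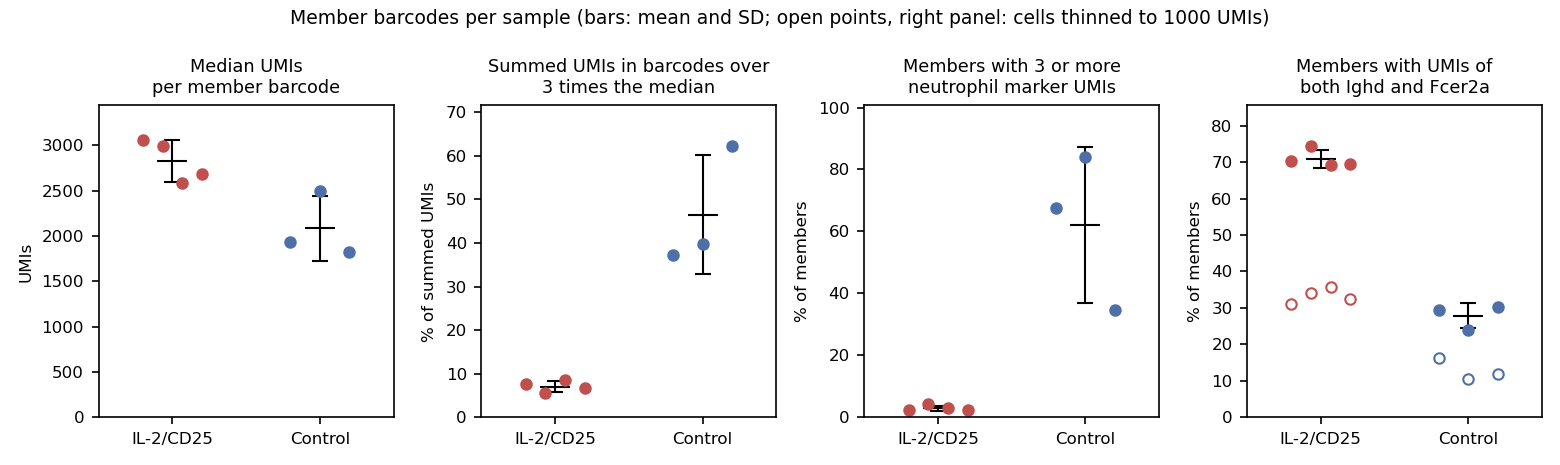
Member barcodes by sample, IL-2/CD25 left and Control right, each point 1 sample with the mean and SD of the group. From left, the median UMIs of a member (2580 to 3059 against 1823.5 to 2495), the percent of summed UMIs in barcodes over 3 times that median, the percent of members with 3 or more neutrophil marker UMIs, and the percent of members with UMIs of both Ighd and Fcer2a, where open points are cells thinned to 1000 UMIs.

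The members carried the genes they were chosen by at levels far above the remaining passing barcodes. The level used throughout is CPM, the UMIs of a gene per 1000000 UMIs summed over the member barcodes of a sample. Cd79a, which encodes a signalling chain of the B cell receptor, was at 2288, 2331, 2277 and 2562 CPM in the IL-2/CD25 samples and at 1471, 1874 and 1085 CPM in the Control samples. In passing barcodes outside the B cell gate it averaged 38.2 CPM in the IL-2/CD25 samples and 2.21 CPM in the Control samples. Ms4a1, which encodes CD20, was at 1032, 1052, 1096 and 1200 CPM in the IL-2/CD25 samples and at 489.7, 756.5 and 292.9 CPM in the Control samples. B cell markers the rule did not use were present as well: Pax5 had a UMI in 82.6 to 89.4% of the IL-2/CD25 members and 41.9 to 62.7% of the Control members. With every cell thinned to 1000 UMIs these shares were 48.8 to 54.2% and 20.5 to 33.7%, and the same thinned share outside the gate was at most 1.46% in the IL-2/CD25 samples and at most 0.155% in the Control samples.

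Ighd and Fcer2a, which set the follicular-like cells apart, are given as a description because the rule used them. Ighd was at 1388, 1524, 1440 and 1601 CPM in the IL-2/CD25 samples and at 997.6, 1044 and 587.7 CPM in the Control samples. Fcer2a was at 511.2, 583.8, 585.4 and 517.5 CPM in the IL-2/CD25 samples and at 172.6, 114.8 and 111.8 CPM in the Control samples. The groups did not overlap for either gene, and the gap was wider for Fcer2a. UMIs of both genes were found in 70.4, 74.5, 69.1 and 69.5% of the IL-2/CD25 members and in 29.4, 24 and 30.3% of the Control members. In thinned cells both were found in 31.0 to 35.7% of the IL-2/CD25 members and 10.7 to 16.3% of the Control members. Members just inside the gate, with exactly 1 UMI of the pair, were 2.58 to 6.48% of the IL-2/CD25 members and 17.2 to 23.1% of the Control members, and just outside it lay 14 to 70 other B cells per IL-2/CD25 sample and 5 to 79 per Control sample.

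Single genes of plasma cells, B-1a cells and immature B cells were detected in few members. In thinned cells Jchain, the joining chain of secreted antibody, had a UMI in 0.235 to 0.916% of the IL-2/CD25 members and at most 1.28% of the members of a Control sample, and outside the gate in up to 0.680% and 0.490% of barcodes. Cd5, a marker of B-1a cells that T cells share, was found in 0.183 to 0.512% of the IL-2/CD25 members, below its share outside the gate in all 4 samples. Cd93, a marker of immature B cells that myeloid and endothelial cells share, was found in 1.88 to 3.29% of the IL-2/CD25 members and at most 2.48% of the members of a Control sample, against 1.62 to 2.44% and 4.07 to 8.47% of barcodes outside the gate. Unthinned, Jchain reached 2.11% of the members of an IL-2/CD25 sample and 2.56% in a Control sample, Cd5 1.17% and 0.490%, and Cd93 8.30% and 6.86%.

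Follicular-like B cells were a larger share of the barcodes in every IL-2/CD25 sample than in any Control sample. They were 5.88, 14.6, 13.2 and 5.30% of passing barcodes in the IL-2/CD25 samples and 2.14, 1.03 and 2.70% in the Control samples. The lowest IL-2/CD25 sample was at 5.30% and the highest Control sample at 2.70%. The shares averaged 9.74% ± 4.83 (SD, n = 4) and 1.96% ± 0.850 (SD, n = 3), a ratio of 4.97. An exact two-sided permutation test over 35 arrangements of the group labels gave p = 0.0857 and an adjusted p of 0.129 over 3 shares compared, so the difference was not called. The smallest p this design allows is 0.0286. edgeR's quasi-likelihood test on the numbers of member barcodes, with passing barcodes as the library size, put the log2 ratio at 2.31 with an adjusted p of 0.0194. The 3 shares were fitted together there, so the spread used by the test does not come from this share alone. Since these are shares, more B cells and fewer cells of other kinds cannot be told apart.

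Among all gated B cells, the follicular-like ones were 94.7, 95.8, 95.1 and 97.5% in the IL-2/CD25 samples and 85.0, 93.8 and 74.8% in the Control samples. The groups did not overlap, and the exact permutation test gave p = 0.0286, the smallest possible, with an adjusted p of 0.0857. Cells of unequal depth pass the gate unequally; with cells thinned to 1000 UMIs the shares were 78.8, 83.3, 84.4 and 86.1% in the IL-2/CD25 samples and 68.7, 69.1 and 72.6% in the Control samples, again without overlap. The difference of the group means was 11.3 percentage points, 6.41 without Control replicate 3 and 7.14 without the barcodes over 3 times the median UMIs. Lambda light chain, which most mouse B cells do not use, was called where UMIs of Iglc1, Iglc2 and Iglc3 exceeded those of Igkc. Lambda cells were 9.68% ± 0.786 (SD, n = 4) of the IL-2/CD25 members and 8.78% ± 1.79 (SD, n = 3) of the Control members, and the exact permutation test did not call a difference (p = 0.40).

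**Figure D2:**
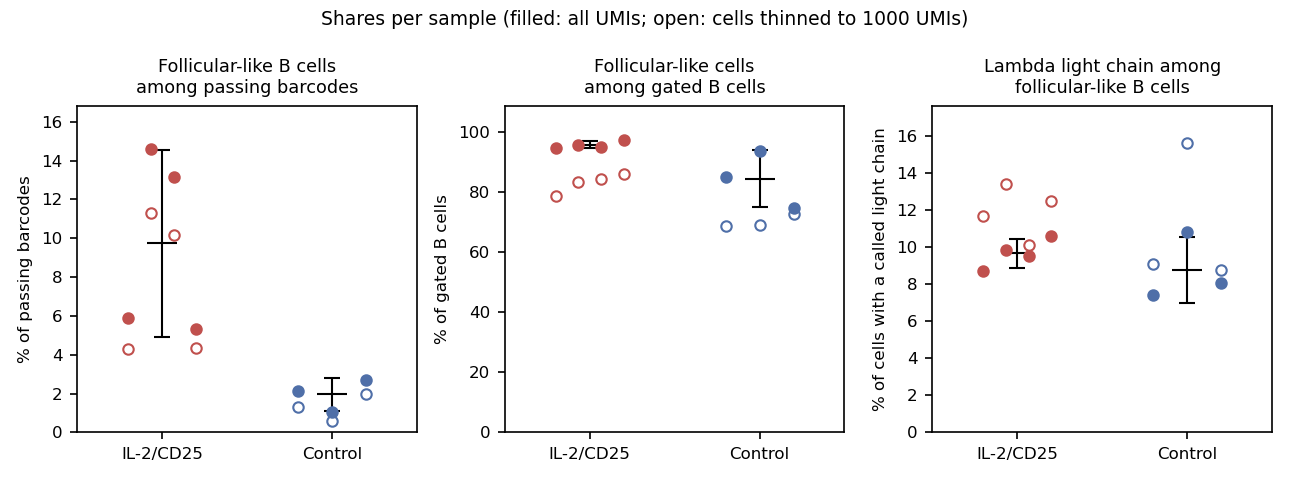
Shares by sample in percent, IL-2/CD25 left and Control right, filled points from all UMIs with the mean and SD of the group, open points from cells thinned to 1000 UMIs. Follicular-like B cells were 5.30 to 14.6% of passing barcodes in the IL-2/CD25 samples and 1.03 to 2.70% in the Control samples, and lambda shares of the groups overlapped.

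To ask which genes differed with the plasmid within these cells, UMIs were summed over the members of each sample and compared with edgeR's quasi-likelihood test at a Benjamini-Hochberg adjusted p of 0.05. Among 9892 tested genes, 1338 had a higher level (13.5%) and 2064 a lower one (20.9%) in the IL-2/CD25 samples. Without the barcodes over 3 times the median UMIs, 708 of 9503 were higher (7.45%) and 951 lower (10.0%). With free RNA also subtracted, 303 of 9044 were higher (3.35%) and 359 lower (3.97%). Called in the same direction in all 3 forms were 223 higher and 214 lower genes, and results below that held in all 3 are given as such. With all members, the groups did not overlap for 1303 of the 1338 higher and 1467 of the 2064 lower genes. A lack of overlap is therefore common among called genes and sets no single gene apart. The percentages over all genes tested are the background for every list count below.

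Genes of the follicular and naive B cell programme rose together. Of 15 list genes tested (the genes of the rule left out), 15 were higher and 0 lower with all members, 13 and 0 without the barcodes over 3 times the median, and 9 and 0 with free RNA subtracted. The median log2 change of the list was 1.16, 0.63 and 0.51 in these forms, against -0.01, 0.01 and 0.02 over all genes tested.

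Most of the receptors that guide B cell traffic rose. Of 18 tested, 13 were higher and 2 lower with all members, 11 and 1 of 17 without the high-UMI barcodes, and 6 and 0 of 17 with free RNA subtracted. Cxcr5, the receptor for the follicle chemokine CXCL13, was at 196.7, 154.6, 168.5 and 132.8 CPM in the IL-2/CD25 samples and at 46.48, 37.15 and 30.64 CPM in the Control samples. The lowest IL-2/CD25 sample stood well above the highest Control sample, and the log2 change was 1.95 ± 0.21 (SE; edgeR, adjusted p = 0.000295). Ccr7, the receptor for the T zone chemokines CCL19 and CCL21, was at 766.2, 652.2, 715.4 and 472.1 CPM in the IL-2/CD25 samples and at 212.5, 222.9 and 118.1 CPM in the Control samples. IL-2/CD25 replicate 4 was the lowest of its group for both chemokine receptors, yet no sample of one group reached the other (log2 change of Ccr7 1.70 ± 0.24, edgeR adjusted p = 0.000871). In thinned cells a Ccr7 UMI was found in 35.2 to 51.2% of the IL-2/CD25 members and 17.1 to 21.3% of the Control members, against 59.3 to 80.5% and 32.1 to 41.3% unthinned and at most 6.39% and 1.23% of thinned barcodes outside the gate.

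S1pr1, the sphingosine 1-phosphate receptor needed to leave lymphoid tissue, was at 428.3, 385.5, 413.4 and 326.9 CPM in the IL-2/CD25 samples and at 106.2, 114.8 and 90.13 CPM in the Control samples (log2 change 1.76 ± 0.16, edgeR adjusted p = 0.000135). Klf2, the transcription factor that activates S1pr1 in lymphocytes, was at 2745, 2403, 2780 and 2059 CPM in the IL-2/CD25 samples and at 942.9, 1074 and 701.2 CPM in the Control samples (log2 change 1.31 ± 0.17, edgeR adjusted p = 0.00057). Neither gene overlapped between the groups. Both were also higher in barcodes outside the gate, where Klf2 averaged 1228 CPM in the IL-2/CD25 samples and 304 CPM in the Control samples. S1pr1 averaged 113 CPM and 2.97 CPM there, and Ccr7 89.6 CPM and 11.6 CPM. Gpr183, the oxysterol receptor that places B cells at the follicle edge, rose by a log2 of 1.74 ± 0.26, Cxcr4 by 1.48 ± 0.28 and Ccr6 by 1.39 ± 0.19, with edgeR adjusted p of 0.00111, 0.00332 and 0.000795. Without the high-UMI barcodes the log2 changes were smaller, at 1.31 for Cxcr5, 1.13 for Ccr7, 1.16 for S1pr1, 0.77 for Klf2, 1.26 for Gpr183, 0.98 for Cxcr4 and 1.01 for Ccr6. All of these were called with edgeR in all 3 forms. Ccr6 lost its call in thinned cells (log2 change 0.65, edgeR adjusted p = 0.301) and without barcodes holding other cell types' markers (0.92, adjusted p = 0.0944). The latter alternative kept 59, 11 and 131 of the 204, 75 and 234 Control members, which limits what it can call.

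Transcription factors of mature B cells showed the same direction. Of 20 tested, 15 were higher and 1 lower with all members, 15 and 2 without the high-UMI barcodes, and 9 and 1 with free RNA subtracted. Pax5, which maintains B cell identity, was at 706.6, 733, 772.5 and 647.9 CPM in the IL-2/CD25 samples and at 290.5, 307.3 and 135.2 CPM in the Control samples. Bach2, a repressor that holds back plasma cell differentiation, was at 343.9, 444.7, 487.4 and 353.4 CPM in the IL-2/CD25 samples and at 156, 155.4 and 95.54 CPM in the Control samples. The groups did not overlap for either factor, and the log2 changes were 1.43 ± 0.23 for Pax5 and 1.46 ± 0.20 for Bach2 (edgeR, adjusted p = 0.00165 and 0.000762). Without the high-UMI barcodes they were 0.97 and 0.92.

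Irf4, a factor that rises with antigen receptor and CD40 signals, was at 151.9, 132.3, 161.8 and 86.15 CPM in the IL-2/CD25 samples and at 31.54, 50.66 and 25.24 CPM in the Control samples (log2 change 1.86 ± 0.29; edgeR, adjusted p = 0.00138). All 4 IL-2/CD25 samples lay above the Control samples, with replicate 4 nearest to them. Bcl11a, needed for B cell development, rose by a log2 of 1.51, Ikzf3 (Aiolos) by 1.42 and Irf8 by 0.86. For these 3 factors the edgeR adjusted p was 0.000474, 0.000717 and 0.00837, and all of them and Irf4 were called in all 3 forms. Outside the gate Irf8 averaged 1035 CPM in the IL-2/CD25 samples, above the members' 646 CPM, and 179 CPM in the Control samples. Ikzf3 averaged 219 CPM and 6.12 CPM there, Bcl11a 102 CPM and 19.9 CPM, and Irf4 19.8 CPM and 6.30 CPM. Irf8 lost its call with doublets removed (log2 change 0.54, edgeR adjusted p = 0.0870) and with free RNA subtracted from all members (0.50, adjusted p = 0.0603). Ebf1, the partner of PAX5 in B cell specification, was at 1681 to 1846 CPM in the IL-2/CD25 samples and 786.9 to 1466 CPM in the Control samples and missed the threshold (log2 change 0.48, edgeR adjusted p = 0.0508). Without the high-UMI barcodes Ebf1 was at 1755 to 1943 CPM and 1855 to 2066 CPM, a log2 change of -0.12. Pou2af1, a coactivator at immunoglobulin promoters, had a log2 change of 0.04 with all members, and was called lower without the high-UMI barcodes (-0.48) and with free RNA subtracted (-0.60).

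**Figure D3:**
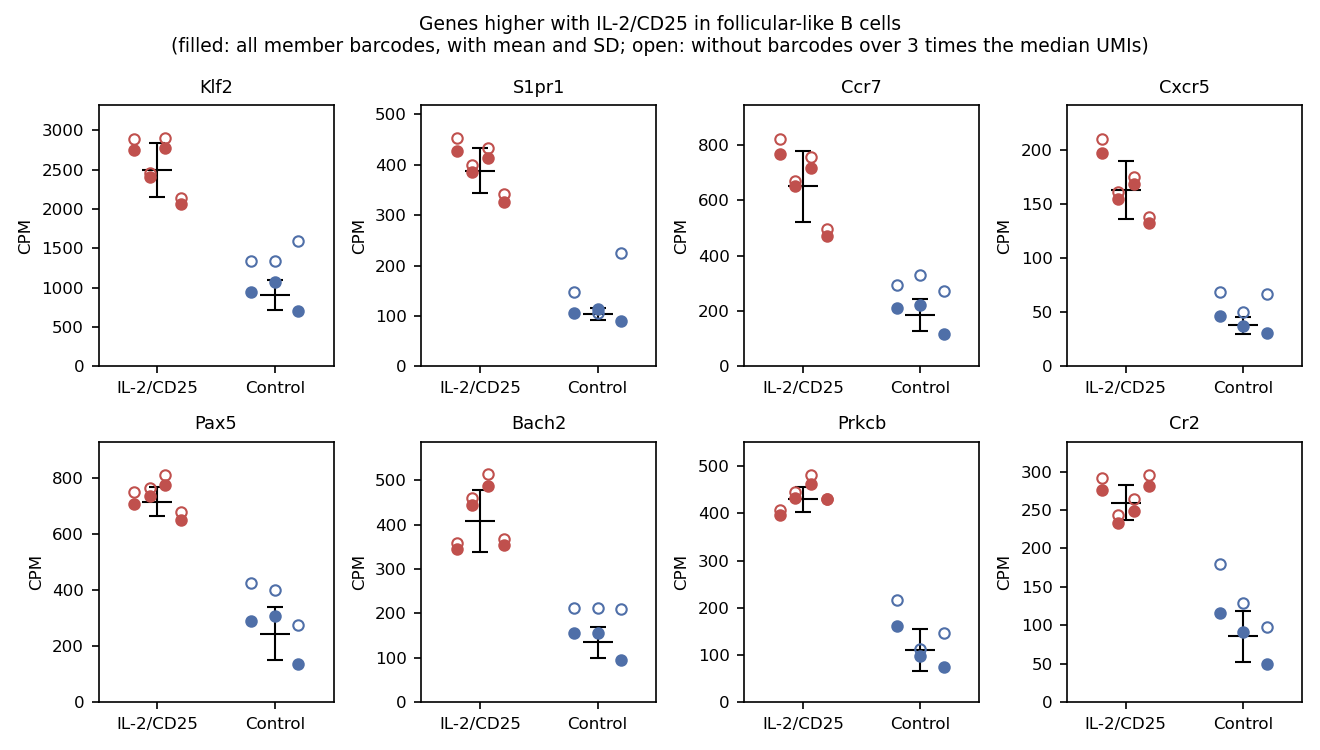
CPM by sample of 8 genes that were higher with IL-2/CD25 in all 3 forms of the comparison, IL-2/CD25 left and Control right in each panel. Filled points are all member barcodes with the mean and SD of the group, and open points leave out barcodes over 3 times the median UMIs. In every panel the lowest IL-2/CD25 sample lies above the highest Control sample, and the open Control points lie mostly above the filled ones.

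In the B cell receptor pathway several genes downstream of the kinases SYK and BTK rose, while Syk and Btk did not pass the test. Of 18 tested (Cd79a and Cd79b left out), 10 were higher and 0 lower with all members, 9 and 1 without the high-UMI barcodes, and 7 and 0 with free RNA subtracted. Prkcb, the protein kinase C isoform that couples the receptor to NF-kB, was at 396.1, 433.2, 460.8 and 429.6 CPM in the IL-2/CD25 samples and at 161, 97.94 and 75.71 CPM in the Control samples. Its groups were far apart (log2 change 1.80 ± 0.22, edgeR adjusted p = 0.000466). Malt1, a protease on the route that PRKCB opens to NF-kB, rose by a log2 of 0.96, and Plcg2, the phospholipase upstream of it, by 0.94 (edgeR, adjusted p = 0.0184 and 0.00953). Cr2, which encodes the complement receptor CD21, was at 275.7, 232.6, 248.8 and 281.5 CPM in the IL-2/CD25 samples and at 116.2, 91.19 and 50.47 CPM in the Control samples (log2 change 1.48, edgeR adjusted p = 0.0015). Bank1, a B cell scaffold protein, rose by a log2 of 1.16 and Cd22, an inhibitory sialic acid receptor, by 1.02. These 5 genes and Prkcb were called in all 3 forms, and with all members Malt1 lost its call without IL-2/CD25 replicate 1 (log2 change 0.86, edgeR adjusted p = 0.0560) and with free RNA subtracted (0.68, adjusted p = 0.0752). Plcg2 lost its call in thinned cells (0.79, edgeR adjusted p = 0.0566) and without barcodes holding other cell types' markers (0.43, adjusted p = 0.337). Syk was at 457.9 to 556.1 CPM in the IL-2/CD25 samples and 209.1 to 503.2 CPM in the Control samples, Btk at 117.8 to 145.2 CPM and 73.01 to 144.4 CPM, and both overlapped between the groups (edgeR, adjusted p = 0.304 and 0.844). Their log2 changes were 0.33 and 0.06 with all members, -0.11 and -0.23 without the high-UMI barcodes, and -0.22 and -0.31 with free RNA subtracted.

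The other inhibitory receptors and phosphatases divided. Of 12 tested, 4 were higher and 4 lower with all members, 2 and 6 without the high-UMI barcodes, and 1 and 3 of 10 with free RNA subtracted, where Cd22 was the one that was higher. Ptpn22, a phosphatase that dampens antigen receptor signals, was at 137.8, 77.76, 93.57 and 98.54 CPM in the IL-2/CD25 samples and at 265.6, 260.1 and 143.3 CPM in the Control samples. IL-2/CD25 replicate 1 came close to Control replicate 3 without reaching it (log2 change -1.26 ± 0.25, edgeR adjusted p = 0.00397), and without the high-UMI barcodes the log2 change was -1.85. Btla and Cd200 were not called with all members, and were lower without the high-UMI barcodes (log2 changes -0.43 and -0.57) and with free RNA subtracted.

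Among receptors for help and survival signals, Tnfrsf13b (TACI, a receptor for BAFF and APRIL) was at 205.4, 199, 197.1 and 207.1 CPM in the IL-2/CD25 samples and at 96.28, 97.94 and 59.49 CPM in the Control samples. Cd86, a costimulatory ligand for T cells, was at 124.5, 83.87, 100.6 and 58.42 CPM in the IL-2/CD25 samples and at 48.14, 43.91 and 21.63 CPM in the Control samples. Neither overlapped, the log2 changes were 1.14 ± 0.17 and 1.22 ± 0.33 (edgeR, adjusted p = 0.00127 and 0.0179), and both were called in all 3 forms. Cd86 lost its call without Control replicate 3 (0.87, edgeR adjusted p = 0.107), in thinned cells (1.11, adjusted p = 0.0742) and without barcodes holding other cell types' markers (1.31, adjusted p = 0.0632). Of 18 genes of the BAFF, CD40 and NF-kB list, 9 were higher and 3 lower with all members, 6 and 5 of 17 without the high-UMI barcodes, and 2 and 3 of 16 with free RNA subtracted. The 3 lower in that last form were Relb, Nfkbia and Nfkbie, targets of NF-kB, with log2 changes of -0.94, -0.70 and -0.79, and none of them was called with all members. Cd40 was higher with all members (log2 change 1.09, edgeR adjusted p = 0.00843) and not called without the high-UMI barcodes (0.57, adjusted p = 0.151).

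Of the chains of the interleukin 2 receptor, Il2ra was scarcely detected in these cells and Il2rg was plainly present. Il2ra was at 4.015, 2.584, 7.012 and 5.311 CPM in the IL-2/CD25 samples and at 0, 10.13 and 0.9013 CPM in the Control samples, too few UMIs to be tested, against a mean of 60.3 CPM in IL-2/CD25 barcodes outside the gate. Il2rb was at 113.8, 103.6, 125.2 and 155.8 CPM in the IL-2/CD25 samples and at 9.96, 108.1 and 2.704 CPM in the Control samples, where replicate 2 reached the IL-2/CD25 range. It was called higher with all members (log2 change 2.10, edgeR adjusted p = 0.0486), without the high-UMI barcodes (2.41, adjusted p = 0.000818) and in thinned cells (4.12, adjusted p = 0.000309). Outside the gate Il2rb averaged 900.5 CPM in the IL-2/CD25 samples and 25.7 CPM in the Control samples. With free RNA subtracted from all members its log2 change was -1.59, and with the high-UMI barcodes also left out -0.51 (edgeR, adjusted p = 0.605 and 0.825). It was not called with doublets removed (0.37, edgeR adjusted p = 0.784) or by DESeq2 (1.55, adjusted p = 0.255). Of genes of NK cells and T cells, 14 of 14 tested were higher with all members and without the high-UMI barcodes, 7 of 7 in thinned cells, and 1 of 11 with free RNA subtracted. Leaving out any 1 sample except Control replicate 2 also ended the call of Il2rb (log2 change 1.35 to 2.09, edgeR adjusted p = 0.0851 to 0.123). Il2rg, the common gamma chain, was at 258.3, 231.2, 257.5 and 209.5 CPM in the IL-2/CD25 samples and at 139.4, 175.6 and 80.22 CPM in the Control samples, without overlap. It was higher with all members (log2 change 0.76) and not called in the other forms (0.27 and 0.03) or without IL-2/CD25 replicate 1, 2 or 3 (edgeR, adjusted p = 0.0521 to 0.0640).

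Cish and Socs3, whose promoters are printed above, were lower. Cish was at 8.03, 6.578, 6.045 and 9.441 CPM in the IL-2/CD25 samples and at 49.8, 54.04 and 21.63 CPM in the Control samples (log2 change -2.57 ± 0.33; edgeR, adjusted p = 0.000669). Socs3 was at 22.08, 14.57, 16.93 and 20.06 CPM in the IL-2/CD25 samples and at 48.14, 74.3 and 34.25 CPM in the Control samples (log2 change -1.59 ± 0.27; edgeR, adjusted p = 0.00208). Control replicate 3 was the lowest Control sample for both genes and still lay above every IL-2/CD25 sample, and both were called in all 3 forms. Outside the gate Cish averaged 66.3 CPM in the IL-2/CD25 samples and 83.8 CPM in the Control samples, and Socs3 65.3 CPM and 51.9 CPM. They were the only 2 of 21 tested genes of the cytokine receptor and STAT feedback list called lower in each form, and the genes called higher numbered 6, 6 and 0. Stat5a, Stat5b, Pim1 and Socs1 were not called by edgeR in any of the 3 forms.

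Genes induced by glucocorticoids and by stress fell in part. Fkbp5, a chaperone of the glucocorticoid receptor, was at 35.47, 22.55, 22.49 and 33.63 CPM in the IL-2/CD25 samples and at 149.4, 172.2 and 104.5 CPM in the Control samples. Ddit4, an inhibitor of mTORC1 signalling, was at 16.06, 9.397, 9.671 and 21.24 CPM in the IL-2/CD25 samples and at 136.1, 138.5 and 70.3 CPM in the Control samples. Both were several-fold apart with no overlap (log2 changes -2.48 ± 0.23 and -3.23 ± 0.33, edgeR adjusted p = 0.000139 and 0.000205). Pik3ip1, an inhibitor of PI3 kinase, fell by 1.15 ± 0.22 on the log2 scale and Il7r, the interleukin 7 receptor, by 2.01 ± 0.32 (edgeR, adjusted p = 0.00396 and 0.00153). In each form 5 of 11 tested list genes were lower and 1, Cxcr4, was higher. Tsc22d3 (GILZ), another standard target, was at 640.2 to 826.4 CPM in the IL-2/CD25 samples and 338.9 to 618 CPM in the Control samples and was not called (log2 change 0.41, edgeR adjusted p = 0.119), nor without the high-UMI barcodes (-0.11) or with free RNA subtracted (-0.24). Outside the gate Fkbp5 averaged 57.7 CPM in the IL-2/CD25 samples and 107 CPM in the Control samples, and Ddit4 34.5 CPM and 147 CPM.

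Of 11 heat shock genes tested, 8 were lower and 0 higher with all members, 8 of 10 were lower without the high-UMI barcodes and 4 of 10 with free RNA subtracted. Hspa1a, an inducible chaperone, was at 2.677, 2.114, 0.7254 and 11.21 CPM in the IL-2/CD25 samples and at 59.76, 91.19 and 39.66 CPM in the Control samples (log2 change -4.30 ± 0.61, edgeR adjusted p = 0.00095). Its near-identical copy Hspa1b fell by 3.18 on the log2 scale, and the split of reads between the copies is uncertain. IL-2/CD25 replicate 4 was the highest of its group for both, and stayed below the Control samples. Hspa8, the constitutive chaperone, was at 311.7 to 356.4 CPM in the IL-2/CD25 samples and 590.9 to 982.4 CPM in the Control samples, a log2 change of -1.35 that was -0.73 without the high-UMI barcodes and -0.40 with free RNA subtracted. Hsp90aa1, Hsp90ab1, Hspe1 and Hspd1 were lower in the first 2 forms and not called with free RNA subtracted.

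Early response genes did not move as a block. Jun was at 517.3, 427.1, 438.8 and 370 CPM in the IL-2/CD25 samples and at 864.8, 878.1 and 694 CPM in the Control samples, without overlap (log2 change -1.04 ± 0.15; edgeR, adjusted p = 0.00099). Egr1 was at 196.1, 201.1, 310.7 and 146.3 CPM in the IL-2/CD25 samples and at 381.8, 405.3 and 271.3 CPM in the Control samples. For Egr1, IL-2/CD25 replicate 3 lay above Control replicate 3 with all members, but not without the high-UMI barcodes, where the log2 change was -1.28 (edgeR, adjusted p = 2.19e-05) instead of -0.87. With all members Egr1 lost its call without Control replicate 2 (-0.76; edgeR, adjusted p = 0.0518). Fos, the partner of JUN, was at 671.5 to 1356 CPM in the IL-2/CD25 samples and 731.9 to 1216 CPM in the Control samples and was not called (log2 change 0.06, edgeR adjusted p = 0.887), nor without the high-UMI barcodes (-0.36) or with free RNA subtracted (-0.51). Of 20 list genes, 7 were higher and 3 lower with all members, 4 and 3 without the high-UMI barcodes, and 0 and 3 of 18 with free RNA subtracted, among them Jun and Egr1 in all forms.

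**Figure D4:**
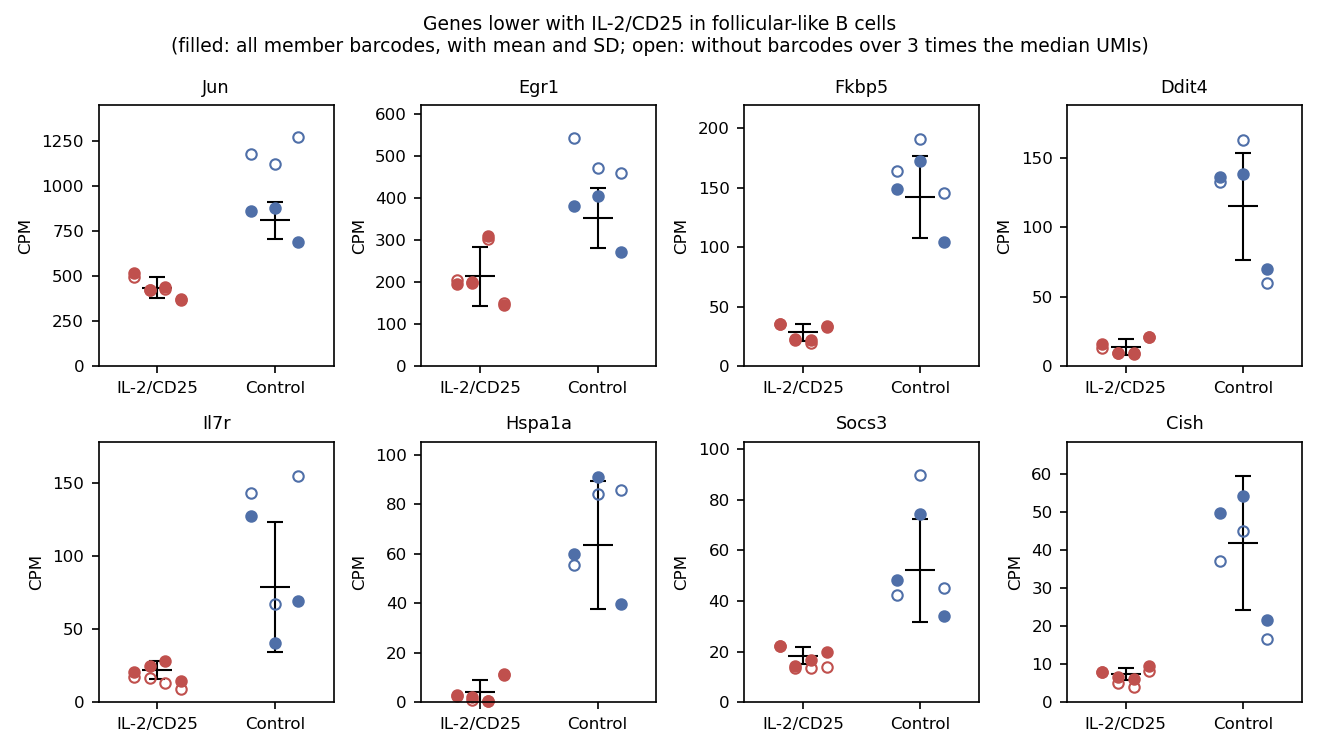
CPM by sample of 8 genes that were lower with IL-2/CD25 in all 3 forms of the comparison, IL-2/CD25 left and Control right in each panel. Filled points are all member barcodes with the mean and SD of the group, and open points leave out barcodes over 3 times the median UMIs. In the filled points the groups overlap for Egr1 alone, and for Jun and Egr1 the open Control points lie above the filled ones.

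Of the antigen presentation genes, the class II gene H2-Eb2 was called higher in each form, while H2-Ab1 and Cd74 were not called in any. Of 13 genes of MHC class II presentation, 5 were higher and 1 lower with all members, 4 and 1 without the high-UMI barcodes, and 1 and 0 with free RNA subtracted. That one was H2-Eb2, at 118.4, 132.5, 140.2 and 137.5 CPM in the IL-2/CD25 samples and 64.74, 54.04 and 27.94 CPM in the Control samples, without overlap (log2 change 1.35, edgeR adjusted p = 0.00213). The main class II chain H2-Ab1 and the invariant chain Cd74 were not called, with log2 changes of 0.12 and 0.38 (edgeR, adjusted p = 0.693 and 0.0938) and of 0.03 and 0.09 without the high-UMI barcodes. With all members but without Control replicate 1 both were called higher (log2 changes 0.48 and 0.61, edgeR adjusted p = 0.0284 and 0.0072). Cd74 was also called with no filter on low counts (0.60, edgeR adjusted p = 0.00477). Of 18 genes of MHC class I presentation, 2 were higher and 1 lower with all members, 0 and 2 without the high-UMI barcodes, and 0 and 2 with free RNA subtracted. Over all genes tested, 13.5% were higher and 20.9% lower with all members.

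Among immunoglobulin constant genes (7 tested, Ighd left out), 4 were higher and 1 lower with all members, 3 and 0 without the high-UMI barcodes, and 1 and 0 of 6 with free RNA subtracted. Iglc2, a lambda constant gene, was at 1053, 1093, 944.9 and 1110 CPM in the IL-2/CD25 samples and at 507.9, 560.6 and 291.1 CPM in the Control samples (log2 change 1.08, edgeR adjusted p = 0.0027) and was called in each form. Ighm was at 8796, 4365, 4312 and 4490 CPM in the IL-2/CD25 samples and at 2453, 3114 and 1356 CPM in the Control samples. IL-2/CD25 replicate 1 stood apart there and came to 4213 CPM without its barcodes over 3 times the median UMIs. The log2 change of Ighm was 1.12 with all members, 0.34 without the high-UMI barcodes (edgeR, adjusted p = 0.0195) and 0.23, not called, with free RNA also subtracted (adjusted p = 0.212). Ighm was not called in thinned cells either (0.29, edgeR adjusted p = 0.103), nor without barcodes holding other cell types' markers (0.47, adjusted p = 0.171) or with free RNA subtracted from all members (0.82, adjusted p = 0.0726).

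Interferon response genes had no common direction with all members or without the high-UMI barcodes, and those called with free RNA subtracted were lower. Of 24 tested, 6 were higher and 2 lower with all members, 3 and 4 without the high-UMI barcodes, and 0 and 4 with free RNA subtracted. The median log2 change of the list was 0.22, -0.07 and -0.44 in these forms. Of 15 interferon gamma GTPases and targets, 2 were higher and 0 lower with all members, 1 and 0 of 14 without the high-UMI barcodes, and 0 and 1 of 13 with free RNA subtracted. Over all genes tested, 13.5% were higher and 20.9% lower with all members, and 3.35% and 3.97% with free RNA subtracted.

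Lists of dividing cells and of MYC targets gave fewer calls once the barcodes of very high UMIs were left out. Of 17 proliferation genes, 0 were higher and 14 lower with all members, 0 and 3 of 14 without the high-UMI barcodes, and 1 and 1 of 10 with free RNA subtracted. Mki67 was at 6.022, 6.578, 8.462 and 7.671 CPM in the IL-2/CD25 samples and at 18.26, 145.2 and 184.8 CPM in the Control samples. Without the high-UMI barcodes it was at 4.344 to 9.252 CPM and 5.613 to 18.55 CPM, with overlap (log2 change -0.90, edgeR adjusted p = 0.271). Of 16 genes of MYC and ribosome biogenesis, 12 were lower with all members, 7 without the high-UMI barcodes and 0 with free RNA subtracted, and 0 were higher in any form. Myc, which all 7 samples received on a plasmid, averaged 37.5 CPM outside the gate in the IL-2/CD25 samples and 1092 CPM in the Control samples. In the members its log2 change was -2.93 with all barcodes, -1.39 without the high-UMI barcodes and 1.49 with free RNA subtracted, the last not called by edgeR (adjusted p = 0.0554). With free RNA subtracted from all members it was -2.05 (edgeR, adjusted p = 0.247).

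**Figure D5:**
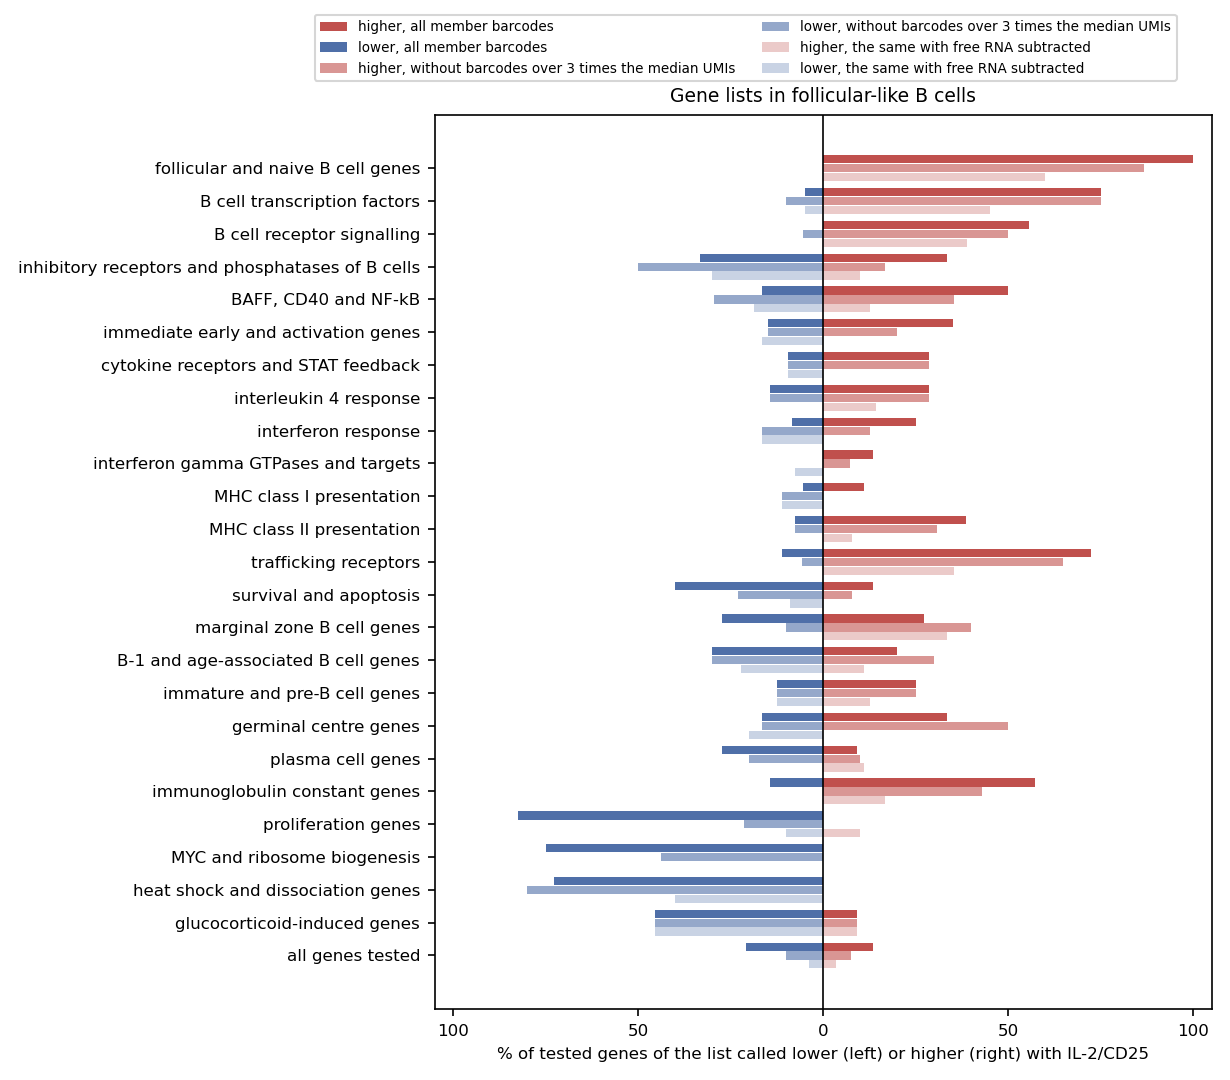
Percent of the tested genes of each list called lower (left of 0) or higher (right of 0) with IL-2/CD25 by edgeR at an adjusted p of 0.05, with 3 bars per list for all members, without barcodes over 3 times the median UMIs, and the same with free RNA subtracted. The bottom line gives all genes tested; 15 of 15 follicular and naive B cell genes were called higher with all members and 9 of 15 with free RNA subtracted.

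Lists that mark other B cell subsets gave calls in both directions with all members, where 13.5% of all genes tested were called higher and 20.9% lower. Of 11 marginal zone genes, 3 were higher and 3 lower with all members, 4 and 1 of 10 without the high-UMI barcodes, and 3 and 0 of 9 with free RNA subtracted, led by Cr2 and Notch2, which follicular cells also express. Of 10 genes of B-1 and age-associated B cells, 2 were higher and 3 lower with all members, 3 and 3 without the high-UMI barcodes, and 1 and 2 of 9 with free RNA subtracted. Of 8 genes of immature and pre-B cells, 2 were higher and 1 lower with all members and without the high-UMI barcodes, and 1 and 1 with free RNA subtracted. Of 6 germinal centre genes, 2 were higher and 1 lower with all members, 3 and 1 without the high-UMI barcodes, and 0 and 1 of 5 with free RNA subtracted. Of 11 plasma cell genes, 1 was higher, Irf4, and 3 lower with all members, 1 and 2 of 10 without the high-UMI barcodes, and 1 and 0 of 9 with free RNA subtracted. Survival and apoptosis genes numbered 2 higher and 6 lower of 15 with all members, 1 and 3 of 13 without the high-UMI barcodes, and 0 and 1 of 11 with free RNA subtracted, where the lower one was Bax, a promoter of apoptosis (log2 change -0.72). Of 7 genes of the interleukin 4 response, 2 were higher and 1 lower with all members and without the high-UMI barcodes, and 1 and 0 with free RNA subtracted, the one being Cd86.

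Beyond the lists, a rule named the largest changes that did not overlap between groups and lay at 0.5 times or more of the level found outside the gate in the same group. The 15 higher genes by size of change were Slc15a2, Xkrx, Slamf1, Tagap, Mir6236, Edaradd, Gdf11, Bcl9l, Cxcr5, Hdac9, Il27ra, Irf4, Stap1, Rapgef4 and Gpr137c, and 12 of them were called in all 3 forms. Slamf1, Edaradd and Il27ra were not called with free RNA subtracted. Of all 928 higher genes that met the rule, 185 were called in all 3 forms. In thinned cells Bcl9l, Edaradd, Gdf11, Il27ra, Rapgef4 and Slamf1 lost their calls (edgeR, adjusted p = 0.0802 to 0.302), and without barcodes holding other cell types' markers Edaradd, Hdac9, Rapgef4, Slamf1 and Xkrx did (adjusted p = 0.0522 to 0.152). In that last form, which kept 59, 11 and 131 Control members, their log2 changes were 1.15 to 1.99. Tagap, a GTPase-activating protein of lymphocytes, was at 86.99, 89.74, 102.5 and 66.68 CPM in the IL-2/CD25 samples and at 19.92, 23.64 and 10.82 CPM in the Control samples (log2 change 2.25, edgeR adjusted p = 0.000459). Stap1, an adaptor of the B cell receptor pathway, was at 888, 852.3, 959.6 and 670.9 CPM in the IL-2/CD25 samples and at 267.2, 216.2 and 157.7 CPM in the Control samples (log2 change 1.83, edgeR adjusted p = 0.000242). That the groups do not overlap for Tagap and Stap1 follows from the rule and is no further result. Outside the gate Tagap averaged 93.5 CPM in the IL-2/CD25 samples and 7.09 CPM in the Control samples, and Stap1 126 CPM and 15.5 CPM. Tagap, Bcl9l and Il27ra were the 3 of the 15 below the level of the IL-2/CD25 barcodes outside the gate. Hdac9, a histone deacetylase that also lost its call with libraries thinned to the same sum (edgeR, adjusted p = 0.0635), rose by a log2 of 1.91 and Gdf11, a ligand of the TGF-beta family, by 2.01. Slc15a2, a peptide transporter, ranged over 44.84 to 149.7 CPM in the IL-2/CD25 samples and 0 to 30.4 CPM in the Control samples, and was not called by DESeq2 (adjusted p = 0.131).

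The 15 lower genes by the same rule were Prkg2, R3hdml, Ptprn, Cda, Sprr1a, Rnase2a, Wfdc2, Tfec, Rtkn, Htra3, Ube2c, Fn1, Qpct, Anxa3 and Fam20c. All 15 were below the level of the Control barcodes outside the gate, and none was both tested and called with free RNA subtracted. Of all 982 lower genes that met the rule, 118 were called in all 3 forms. Fn1, which encodes fibronectin, was at 2.677, 1.879, 9.43 and 13.57 CPM in the IL-2/CD25 members and at 574.3, 776.8 and 297.4 CPM in the Control members, while Control barcodes outside the gate averaged 978 CPM. All 12 neutrophil genes tested were lower with all members and without the high-UMI barcodes, and 5 of 7 with free RNA subtracted. Monocyte and macrophage genes were lower in 6 of 11, 6 of 7 and 1 of 1, and tumour and bile duct genes in 6 of 7 and 6 of 6. Of the other marker lists, dendritic cell genes had 1 higher of 5, hepatocyte genes 2 lower of 5, endothelial and stellate genes 1 higher of 1, and erythroid and platelet genes 0 of 4 with all members.

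Follicular-like cells were last set beside the 284 other B cells, as a description only, since the rule itself divides them. Of 6824 genes, 1203 (17.6%) passed edgeR's threshold in either direction, 637 higher and 566 lower in follicular-like cells. Zfp318, which allows IgD to be made, was at 538.7, 488.2, 495.6 and 512.2 CPM in follicular-like cells of the IL-2/CD25 samples and at 102.6, 65.0, 78.1 and 59.0 CPM in their other B cells. In the Control samples Zfp318 was at 275.6, 270.2 and 157.7 CPM in follicular-like cells and at 23.5, 160.7 and 11.2 CPM in other B cells. It was higher in follicular-like cells of all 7 samples, as were Cr2, Fcmr (the IgM Fc receptor), Fcrl1 and Satb1. Creld2, Sdf2l1, Hsp90b1 and Pdia4, which serve protein folding in the endoplasmic reticulum, Tent5c and Bst2 were lower in follicular-like cells of all 7 samples. Hsp90b1 was at 272.4, 289.9, 289.7 and 273.2 CPM in follicular-like cells of the IL-2/CD25 samples and at 2942, 1173, 1780 and 8281 CPM in their other B cells. In the Control samples it was at 403.4, 361.4 and 822.0 CPM in follicular-like cells and at 5720, 428.5 and 1960 CPM in other B cells. The log2 difference of Hsp90b1 was -2.83 with all barcodes, -0.93 without the high-UMI barcodes, -0.43 in thinned cells and -0.26 without barcodes holding other cell types' markers. That of Zfp318 was 2.81, 1.79, 0.73 and 1.26 in the same order, and that of Cr2 2.58, 1.37, 0.38 and 0.68. Thinned cells were gated again, and the IL-2/CD25 samples then held 82, 192, 189 and 71 other B cells, against 24, 56, 70 and 14 before. Follicular-like cells that lost their Ighd and Fcer2a UMIs count as other B cells there, so the thinned values mix the 2 kinds. Without marker-holding barcodes the Control samples held 6, 2 and 22 other B cells.

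Whether the plasmid's effect differed between the kinds was tested as an interaction, with the sample as a block. edgeR's quasi-likelihood test called 388 of 8511 genes (4.56%), 11 with a more positive change in follicular-like cells and 377 with a more negative one. Irf4 was among the 11: its change was higher by a log2 of 1.84 in follicular-like than in other B cells (edgeR, adjusted p = 0.0158), and other B cells held 94.7, 94.3, 168 and 47.2 CPM in the IL-2/CD25 samples and 161, 53.6 and 43.0 CPM in the Control samples. Irf8 had a change lower by 2.08 (edgeR, adjusted p = 0.000623), with 868, 1375, 819 and 1498 CPM in other B cells of the IL-2/CD25 samples and 166, 375 and 59.3 CPM in those of the Control samples. The Control sums of other B cells rest on 36, 5 and 79 barcodes. Without the barcodes over 3 times the median UMIs 41 genes were called, and with free RNA also subtracted 15.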

How the data were processed

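For all 7 samples the authors deposited UMI counts per gene and cell barcode, whole numbers without normalisation, over 55357 features. Reads were processed with bcl2fastq 5.0.1 and Cell Ranger 7.0.0, per the submitters' processing notes. The build of the genome is not given in the sources used here, nor is the annotation. All samples were grouped by their labels.

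UMIs were summed over the members of each sample and tested in R 4.3.3 with edgeR 4.0.16 (quasi-likelihood). Sums were scaled by TMM, genes filtered by filterByExpr, and p-values adjusted over all genes tested by Benjamini-Hochberg, with 0.05 as the threshold. The summed depth was 1494410 to 4256572 UMIs in the IL-2/CD25 samples and 296095 to 1109485 UMIs in the Control samples, which limits low genes in Control. For shares, group labels were permuted exactly (two-sided, 35 arrangements) and p adjusted over 3 shares. The alternatives were cells thinned to 1000 UMIs, stricter cells (500 genes, 10% mitochondrial UMIs), a stricter gate (2 UMIs in place of 1), barcodes with 3 or more UMIs of another cell type's markers left out, called doublets removed (5.80 to 8.35% of passing barcodes), free RNA subtracted, DESeq2 1.42.0, other scaling and filters, and each sample left out. In the fits and in the 3 shares compared, thinned cells were gated again after thinning. Doublets were otherwise kept. Free RNA is the share of a sum that marker lists of other cell types would need, as a median over 6 lists, taking the sample's other barcodes as its composition. The forms without barcodes over 3 times the median UMIs, and the sums with at least 20 cells, were chosen after the data were seen. The members and the 32 gene lists were chosen with earlier results of these data known.

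Genes were named by a rule: per direction, up to 15 called genes averaging 20 CPM or more in the higher group, with no overlap between groups and at least 0.5 times the level outside the gate, ordered by log2 change, without mitochondrial, ribosomal, immunoglobulin variable or unnamed genes; list members stand as examples, and some are not reported here. Promoters were matched to RefSeq by symbol. On simulated data made from these sums edgeR found 53.5% of genes changed 2-fold among 9637 genes in the IL-2/CD25 comparison, 73.0% among 6571 between follicular-like and other B cells, and 0% among 7875 in the interaction. The genes changed in the simulation were drawn from the more abundant ones, and every gene was given the same spread between samples. The percentages found therefore do not cover genes of low level. Figures were drawn with matplotlib 3.10.9.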

Additional observations from a re-analysis of the deposited data

Results flagged for a closer look

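In the IL-2/CD25 group 1 sample stood far from the other 3 for 9 gene levels. In all 94 sets of 4 values were examined, among them the shares and the median UMIs of members. IL-2/CD25 replicate 1 was at 8796 CPM for Ighm, 16020 CPM for Igkc and 587.5 CPM for Jchain, and without its barcodes over 3 times the median UMIs at 4213, 6853 and 2.172 CPM. IL-2/CD25 replicate 4 was lowest for Ebf1 (1681 CPM) and Syk (457.9 CPM) and highest for Hspa1b (33.63 CPM). Tfec (0.2349 CPM), Rtkn (0.4699 CPM) and Htra3 (0.7254 CPM) were each detected in 1 IL-2/CD25 sample and at 0 in the other 3. A gene at 0 in 3 of 4 samples is flagged whatever its level in the remaining sample, so the flags cannot be set against a chance rate.

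For some named genes the IL-2/CD25 change differed between follicular-like and other B cells by edgeR's interaction test. On the log2 scale the change in follicular-like cells minus that in other B cells was 1.84 for Irf4 and 1.56 for Myc, -2.08 for Irf8, -1.99 for Bcl11a, -5.06 for Il7r, -1.74 for Pik3ip1, -2.15 for Socs3, -1.92 for Ptpn22 and -2.45 for Apoe. Apoe, an apolipoprotein of macrophages and hepatocytes that was chosen after its values were seen, was at 181.3 to 538.1 CPM in the IL-2/CD25 members and 725.4 to 831.9 CPM in the Control members, and outside the gate averaged 377 CPM and 682 CPM. Among the genes with the largest lower change it was -6.25 for Tfec, -3.74 for Ube2c, -5.89 for Fn1, -6.81 for Qpct, -3.19 for Anxa3 and -6.29 for Fam20c. The other B cells of Control replicate 2 were 5 barcodes.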

How the results depend on the processing

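The 2 shares of follicular-like B cells kept their direction under every alternative run, though the difference in their share of gated B cells, 11.3 points, was 6.41 without Control replicate 3 and 7.14 without high-UMI barcodes. The lambda share of follicular-like B cells reversed, with a difference of -0.269 percentage points without barcodes holding other cell types' markers and -0.565 with the stricter gate. edgeR on cell numbers called the share of passing barcodes (log2 ratio 2.31), which the exact permutation test did not. The number of genes called between IL-2/CD25 and Control was 3402, and it fell to 612 without barcodes holding other cell types' markers, 1147 with free RNA subtracted, 606 with thinned cells and 1272 with libraries thinned to the same summed UMIs. Among 2924 called genes still tested without marker-holding barcodes, 253 changed sign, in a form that kept 59, 11 and 131 Control members. The number called was 1659 without barcodes over 3 times the median UMIs and 662 with free RNA also subtracted. Leaving out 1 sample gave 2177 to 3970, the lowest without IL-2/CD25 replicate 2. The count between follicular-like and other B cells, 1203, was 41 without marker-holding barcodes and 500 with the stricter gate. Without high-UMI barcodes it was 262, and 218 with free RNA also subtracted. It was 47 with thinned cells, where cells that lost their Ighd and Fcer2a UMIs were counted as other B cells. With no filter on low counts it was 2028, and with 1 sample left out 765 to 1537, the lowest without IL-2/CD25 replicate 3. The interaction, 388 genes, gave 2, 100, 41 and 15 in the marker, free RNA, high-UMI and combined alternatives, 182 to 497 with 1 sample left out (207 and 229 without IL-2/CD25 replicates 2 and 3, 182 without Control replicate 3), and 0 of 4798 by edgeR with the stricter gate, where 246 had an unadjusted p under 0.05. The cause was not tested.

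Of single genes, Il2rb reversed with free RNA subtracted (-1.59, and -0.51 with high-UMI barcodes also left out) and Myc in that second form (1.49). Over 83 genes and 1631 settings, 1532 kept their side of the threshold, 74 lost the call, 22 gained it and 3 called changes reversed. The sign turned in 44, of which 38 were uncalled both ways (Ebf1, Syk, Btk and Fos among them). Cd86 lost its call in thinned cells (edgeR, adjusted p = 0.0742) and without marker-holding barcodes, as did Ccr6, Notch2 and Plcg2. Whether equal replicate numbers pair the samples is not known. Deviations of equal numbers correlated at -0.068, -0.041 and 0.080, and 3 such values cannot exclude pairing. With the replicate block 1977 genes were called, Egr1 and Oasl2 lost theirs, and the share of passing barcodes differed by 9.26 percentage points over 3 pairs (exact permutation test, adjusted p = 0.375). DESeq2 called 3843.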

Other observations

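In members thinned to 1000 UMIs, gene lists were also counted cell by cell. Of the trafficking receptors, 5 or more UMIs were found in 51.6, 44.6, 51.9 and 38.5% of the IL-2/CD25 members and in 18.3, 13.3 and 16.2% of the Control members. Genes of immature and pre-B cells summed to 2.65 to 2.90 UMIs in the IL-2/CD25 samples and 2.63 to 2.71 in the Control samples. Genes of B-1 and age-associated B cells summed to 0.545 to 0.758 UMIs in the IL-2/CD25 samples and 2.30 to 3.63 in the Control samples, without overlap. S100a6 and Itgam of this list are also genes of neutrophils, whose markers were found in more Control members, and their part in the sum was not tested. Heat shock genes summed to 1.89 to 2.25 UMIs in the IL-2/CD25 samples and 2.83 to 3.86 in the Control samples, and 5 or more UMIs of them were held by 5.3 to 9.3% and 18.7 to 29.5% of members.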
